A study of Homo sapiens with 30 samples.

Results

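The comparison of A375 cells incubated for 2 h with 650 nM MLN4924 against A375 cells incubated for 2 h with 0.065% DMSO rested on 6 of the 30 arrays of the series, chosen by their titles, 3 per group. A375 is a long-established melanoma line that carries an activated BRAF kinase, and every group of the series was this 1 line. The other 24 arrays held the same treatments after 1, 4, 8 and 24 h, each time with 3 DMSO arrays of that time. Whether the 3 arrays of a group came from separate cultures is not stated in the labels. The p-values therefore reflect the spread between these arrays, which may be technical.

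MLN4924 (pevonedistat) inhibits the enzyme that activates NEDD8, a small protein coupled to cullins. Without this coupling cullin-RING ubiquitin ligases lose most of their activity and fail to mark their substrates for degradation by the proteasome. Substrates with very short lives, among them the transcription factors NRF2, ATF4, MYC and HIF-1 alpha, the inhibitor of NF-kB and the replication factor CDT1, can build up once these ligases stop. Genes that such factors control, and short-lived messages of growth factor and stress signalling, can therefore respond early. These are general facts and no result of these arrays.

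RNA was labelled with biotin and hybridised to Affymetrix HG-U133 Plus 2.0 arrays, on which several short probes form a probe set for a transcript. Signals were quantile-normalized, and a log2 change is the difference, MLN4924 minus DMSO, between means of log2(signal + 32) over 3 arrays per group, so changes of dim genes are understated. Its standard error (SE) and adjusted p come from limma fitted over all 30 arrays, with Benjamini-Hochberg adjustment over 19775 genes. A gene is called, and described as risen or fallen, at an adjusted p under 0.05. The deposited signals of the 6 arrays had medians of 32.9 to 37.3 and means of 237.5 to 261.3, and 3 arrays per group limit how precise any value is.

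The arrays of the DMSO group at 2 h were not alike. The ratio of ACTB signal at the 3' end to that at the 5' end, which rises as RNA is degraded, was 1.74 in DMSO replicate 1 and 1.68 in replicate 2, the highest of all 30 arrays, against 1.26 in replicate 3 and 1.25 to 1.36 with MLN4924. The remaining 28 arrays lay between 1.14 and 1.56, and the same ratio of GAPDH was 0.89 to 1.01 on the 6 arrays. DMSO replicate 3 correlated with the MLN4924 arrays at a mean of 0.9892 and with its own group at 0.9888. Values with replicate 3 as the only control are therefore given for several results. Of the melanocyte lineage list 17 of 23 measured genes lay above the median signal of 67.0, while TYR, TYRP1, PMEL, MLANA, GPR143 and SLC45A2, which make or carry pigment, lay below it. The summed signal of that list was 18831 to 19659 with DMSO and 17542 to 18529 with MLN4924, ranges that do not overlap. The part of this small difference in other results was not tested, and fewer cells of a type and less RNA per cell cannot be told apart in such bulk samples. Markers of fibroblasts (sums of 365 to 431 and 395 to 449, 8 of 10 below the median), blood (490 to 591 and 478 to 595, 4 of 7 below) and endothelium (200 to 269 and 223 to 253, 6 of 8 below) had overlapping ranges. The larger sum of keratinocyte and epithelial markers (5084 to 5734 and 4970 to 5345) overlapped too. Of its 10 genes 5 lay below the median (KRT5, KRT1, EPCAM, CDH1 and DSG3), while KRT14, KRT10, KRT8, KRT18 and DSP did not.

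Of the 19775 genes, 109 were called at 2 h (0.551%), 67 higher (0.339%) and 42 lower (0.212%). The median log2 change was 0.54 among the called genes that rose and -0.48 among those that fell. Each of the 8 genes that passed 2-fold rose, and the deepest fall, that of EGR1, was -0.84. In each of the 67 risers all 3 MLN4924 arrays exceeded all 3 DMSO arrays, and in 41 of the 42 falls all 3 were lower. Over all genes these patterns held for 5.22% and 6.99%. The median change of all genes was -0.014, and 2017 genes (10.2%) had an unadjusted p under 0.05, against 968 (4.9%) at 1 h, where CHAC1 was the only gene called (0.00506%).

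**Figure D1:**
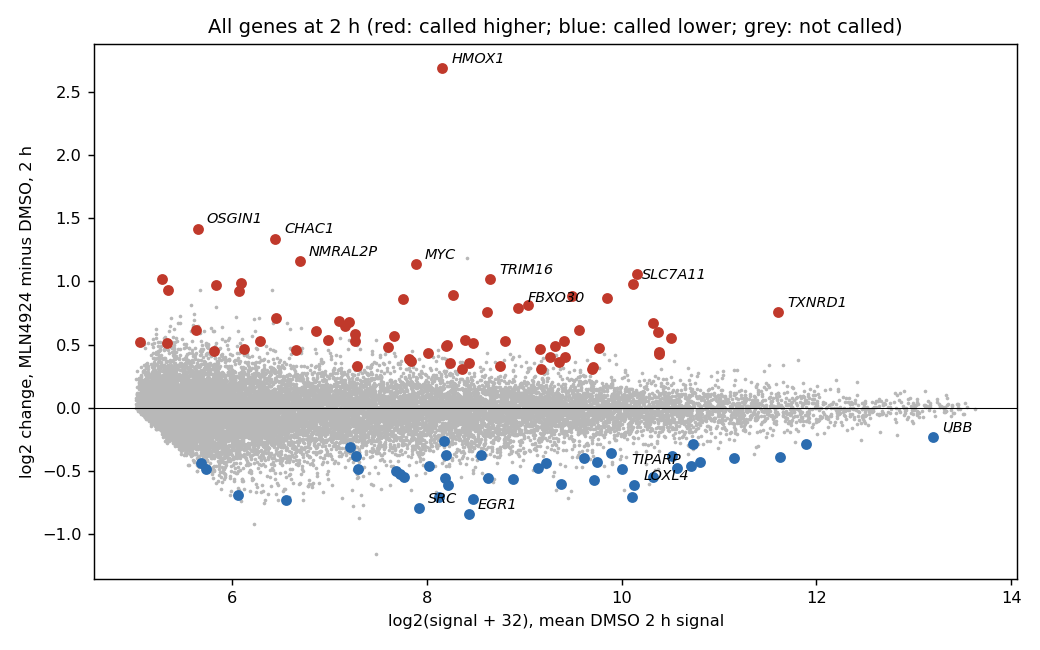
Change at 2 h (vertical axis, log2, MLN4924 minus DMSO) against the DMSO level of each of 19775 genes (horizontal axis, log2 of mean signal + 32). The 67 genes called higher (red) reach 2.69, and the 42 called lower (blue) end at -0.84. Of the 109 called genes 11 had both group means at or below the median signal.

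Single arrays decided many of these calls. With 1 array of the 2 h groups left out the count ran from 68 to 244, with 49 to 106 higher and 17 to 138 lower. Without DMSO replicate 3 the lower calls (138) outnumbered the higher (106). Of the 109 genes, 44 (36 higher, 8 lower) were called in each of the 6 fits that left out 1 array of the 2 h groups. Leaving out DMSO replicate 1 lost 47 of the 109 calls, replicate 2 lost 46 and replicate 3 lost 12, and leaving out MLN4924 replicates 1, 2 and 3 in turn lost 32, 47 and 48. Without DMSO replicates 1 and 2 together, 31 of them (25 higher, 6 lower) were still called. That fit has DMSO replicate 3 as its only control at 2 h and assumes that it varies like the other groups. Against DMSO of 1, 2 and 4 h together 79 of the 109 (56 of 67 higher, 23 of 42 lower) were called. A fit of the 6 arrays alone, with its few degrees of freedom, called 9 of them (8 higher and EGR1). The 8 genes called under every alternative that held them were HMOX1, OSGIN1, SLC7A11, CHAC1, NMRAL2P, MYC, CXCL8 and FBXO30, and 3 of these 8 are on the NRF2 list. MYC and CXCL8 were absent from the run without probe sets that may cross-hybridise, so that run did not check them.

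The antioxidant genes controlled by NRF2 led the rise. HMOX1, whose product haem oxygenase 1 breaks down haem, had signals of 266, 271 and 225 with DMSO and 1723, 1971 and 1733 with MLN4924. The groups were far apart, and the log2 change was 2.69 (SE 0.10, adjusted p = 5.81e-15). OSGIN1, an oxidative stress response gene, gave 20.3, 22.7 and 11.3 with DMSO and 80.9, 112 and 114 with MLN4924, a change of 1.42 (SE 0.15, adjusted p = 4.28e-06). Its DMSO signals lay below the median signal and its MLN4924 signals above it. SLC7A11, the cystine carrier that feeds glutathione synthesis, gave 1081, 1142 and 1004 with DMSO and 2069, 2088 and 2300.1 with MLN4924. All 3 treated arrays stood well above the controls (log2 change 0.98, SE 0.08, adjusted p = 2.38e-08).

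Of 33 measured NRF2 genes 7 were called higher and none lower, against 0.339% and 0.212% of all genes, and the list's median change was 0.180. The other called members were SRXN1, which encodes sulfiredoxin (0.89), TXNRD1, the cytosolic thioredoxin reductase (0.76), GCLM, a subunit of the rate-limiting enzyme of glutathione synthesis (0.67), and ABCC2, an export pump for glutathione conjugates (0.58). The aldo-keto reductase genes AKR1C1 (0.31, adjusted p = 0.26), AKR1C3 (0.29, adjusted p = 0.176) and AKR1B10 (0.30, adjusted p = 0.427) missed the threshold at 2 h and were called at 4 h. By 4 h 21 of 33 were called higher, where 1.83% of all genes were. With the mean of all probe sets of a gene the change of TXNRD1 was 0.38, still called. NFE2L2, which encodes NRF2 itself, had a change of 0.18 with overlapping groups, and KEAP1, the gene of the NRF2 receptor of cullin 3 ligases, one of -0.10 with overlapping groups, neither called. 2 genes outside the list rose by similar amounts. NMRAL2P, a pseudogene transcript, gave 72.4, 70.9 and 71.1 with DMSO and 207, 216 and 175 with MLN4924, a change of 1.16 (SE 0.10, adjusted p = 1.02e-07). TRIM16, which encodes an E3 ubiquitin ligase, gave 307, 375 and 426 with DMSO and 658, 748 and 943 with MLN4924. Both were higher on every treated array, TRIM16 by 1.02 (SE 0.12, adjusted p = 1.15e-05).

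The antioxidant response element is the short DNA sequence that NRF2 binds with its small MAF partners. Its core was searched in the promoter windows of RefSeq (GRCh38.p14), 250 bases before to 50 after each gene's start, on both strands as TGACNNNGC. The core was in 8 of 53 windows of called risers (15.1%), 6 of 33 of called falls (18.2%) and 14.8% of tested genes' windows. Windows from TXNRD1 (chr12:104215660-104215708, plus strand) and GCLM (chr1:93909436-93909484, minus strand) are shown as the called NRF2 list members found with the core upstream of the start. Each reads 5′ to 3′ along the gene, with the match in capitals, on the opposite strand in GCLM.
TXNRD1: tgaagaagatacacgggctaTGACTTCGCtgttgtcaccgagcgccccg
GCLM: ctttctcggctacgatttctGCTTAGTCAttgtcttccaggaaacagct
The match began 99 bases before the start of TXNRD1 and 34 before that of GCLM.

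Genes of the amino acid response, which the transcription factor ATF4 controls, were a second group with rises and no falls. CHAC1, whose product degrades glutathione, had signals of 62.2, 50.1 and 52.6 with DMSO and 181, 173 and 209.6 with MLN4924, and its change of 1.34 (SE 0.08, adjusted p = 4.67e-10) exceeded its change of 0.59 at 1 h. The difference between the effects at 2 h and 1 h was itself called, at 0.75. TRIB3, a pseudokinase that dampens ATF4 and AKT, gave 691, 644 and 629 with DMSO and 920, 828 and 881 with MLN4924. The groups did not overlap, and the change was 0.40 (SE 0.06, adjusted p = 0.000361). CEBPB, a basic leucine zipper factor that pairs with ATF4, gave 1283, 1349 and 1288 with DMSO and 1817, 1812 and 1666 with MLN4924, a change of 0.42 (SE 0.05, adjusted p = 2.1e-05). At 4 h its change was 0.19, still called, and the arrays of 2 h did not overlap.

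Of 36 measured ATF4 genes 6 rose, against 0.339% of all genes, and none fell, against 0.212%, with a median of 0.132. The remaining called members were ATF3, a stress-induced repressor of the same factor family (0.54), CEBPG, a partner of ATF4 (0.48), and CTH, which makes cysteine from cystathionine (0.51). ATF3 and CTH were each called in 3 of the 6 fits without 1 array and CEBPG in 5. ATF4 itself was not called (0.13, adjusted p = 0.472), nor were PSPH, the last enzyme of serine synthesis (0.42, adjusted p = 0.179), or the large neutral amino acid carrier gene SLC7A5 (-0.21, adjusted p = 0.561). At 4 h the list held 12 called higher, against 1.83% of all genes, and none lower, against 1.57%.

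The composite element bound by ATF4 with a C/EBP partner was searched as TGATGNAA. It was present in 2 of 53 called risers with a promoter entry, CHAC1 (chr15:40953242-40953289) and ATF3 (chr1:212565196-212565243), both on the plus strand. They are shown as the only called genes with the element, with the match in capitals, on the opposite strand in CHAC1.
CHAC1: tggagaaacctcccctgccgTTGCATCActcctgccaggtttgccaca
ATF3: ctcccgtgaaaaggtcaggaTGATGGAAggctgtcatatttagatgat

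MYC, HHEX and MSC, 3 genes of transcription factors, were among the larger rises. None of them is on the list of 59 short-lived transcription factors, of which none rose and SOX2 fell, against 0.339% and 0.212% of all genes. MYC, which drives cell growth and whose protein is itself a substrate of a cullin 1 ligase, gave 207, 197 and 209 with DMSO and 435, 501 and 530.3 with MLN4924. Every treated array was far above every control, and the change was 1.14 (SE 0.09, adjusted p = 3.79e-08). HHEX, a homeobox repressor, gave 337, 333 and 409 with DMSO and 565, 699 and 625 with MLN4924, a change of 0.76 (SE 0.10, adjusted p = 0.00012). With DMSO replicate 3 alone as control it was 0.58 (adjusted p = 0.136). MSC, a basic helix-loop-helix repressor, gave 36.1, 24.7 and 14.5 with DMSO and 75.3, 74.8 and 85.8 with MLN4924, a change of 0.97 (SE 0.14, adjusted p = 0.000301), and 1.25 (adjusted p = 0.000957) with DMSO replicate 3 alone. All its DMSO signals lay below the median signal.

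Among 33 Notch and WNT genes 3 rose, against 0.339% of all genes, and none fell. They were AXIN2, a feedback inhibitor of WNT signalling whose own gene is a beta-catenin target (0.62, adjusted p = 0.00157), the ligand gene WNT5A (0.53, adjusted p = 0.00655) and the Notch target HEY1 (0.49, adjusted p = 0.0202). AXIN2 was called in all 6 fits without 1 array, WNT5A and HEY1 in 4. The AXIN2 signals, 14.0, 22.3 and 16.3 with DMSO and 44.5, 39.7 and 47.2 with MLN4924, lay below the median signal in both groups, and with the mean of all its probe sets the change was 0.16 (adjusted p = 0.616). The Notch target HES1 lay lower on all 3 treated arrays (-0.53) but missed the threshold (adjusted p = 0.0713). AXIN2, WNT5A and HEY1 were called lower at 24 h (-0.30, -0.32 and -0.75). The list's median at 2 h was 0.039.

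Of 27 measured target genes of SRF and YAP, factors that respond to actin tension and cell contact, 2 rose, against 0.339% of all genes, and none fell. CCN2, a matricellular growth factor, gave 1097, 952 and 1276 with DMSO and 2049, 2606 and 2354 with MLN4924. Its groups were clearly apart with a change of 1.06 (SE 0.10, adjusted p = 5.59e-07), and DMSO replicate 3 was the highest control. ANKRD1, a nuclear ankyrin protein, gave 90.5, 107 and 136 with DMSO and 215, 160 and 201 with MLN4924, a change of 0.65 (SE 0.12, adjusted p = 0.00828), and was called in 3 of the 6 fits without 1 array. Its change was 1.64 at 4 h and 4.42 at 24 h. CCN1, a close relative of CCN2, overlapped between the groups at 2 h (0.18, adjusted p = 0.641) and was called only from 4 h on, at 0.64. The list's median was 0.025.

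**Figure D2:**
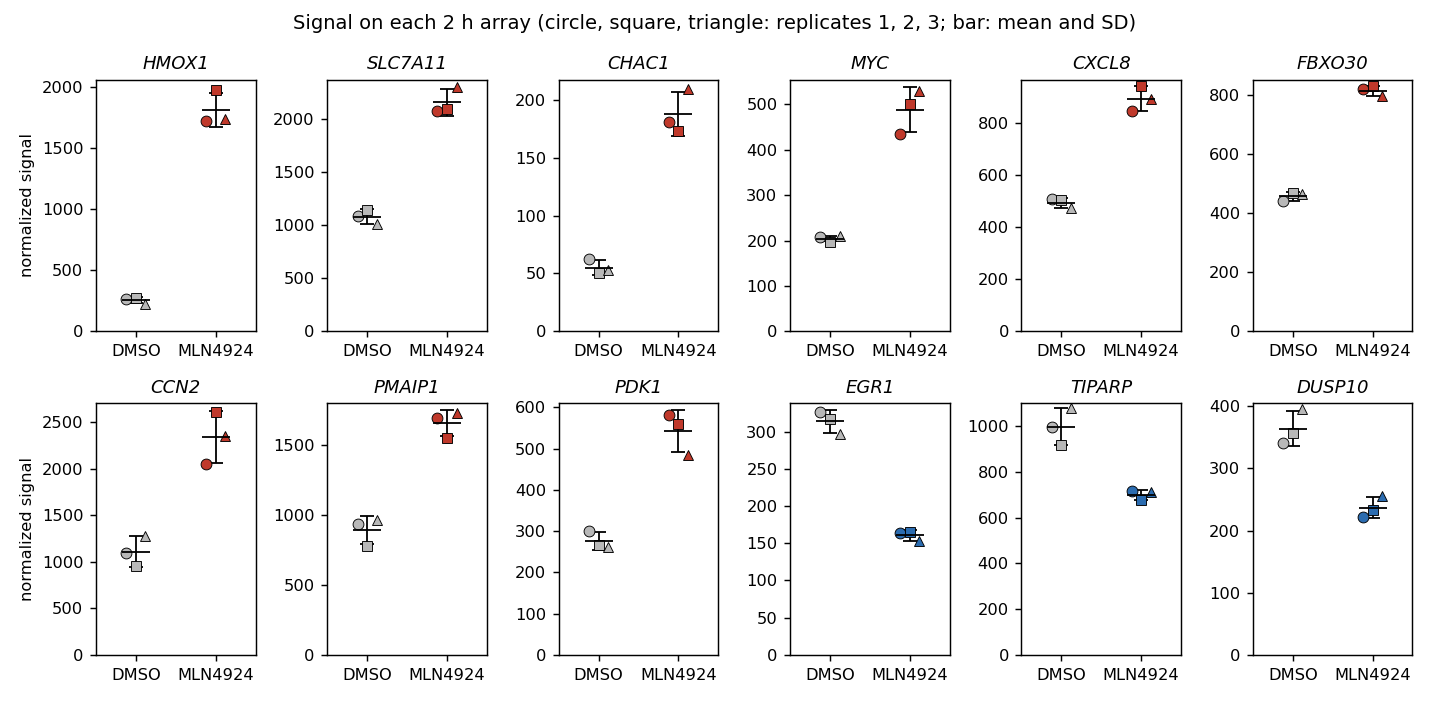
Normalized signal (vertical axes, linear from 0) of 12 called genes on each of the 6 arrays of 2 h, with group means and SD (n = 3). In each panel the MLN4924 arrays (red where higher, blue where lower) and the DMSO arrays (grey) do not overlap, as for FBXO30 at 797.4 to 831 against 441 to 468.

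Inflammatory and AP-1 linked genes moved in both directions. CXCL8, the neutrophil chemokine interleukin 8, gave 507, 504 and 472 with DMSO and 846, 944 and 892 with MLN4924. The groups were well separated, the change was 0.81 (SE 0.08, adjusted p = 5.59e-07), and a second probe set gave 0.82. It was at its largest at 2 h among the 5 times, with 0.38 at 4 h, 0.31 at 8 h and 0.16 at 24 h. Its neighbour in function CXCL1 gave 785, 864 and 735 with DMSO and 995, 1046 and 932 with MLN4924, a smaller change of 0.31 (SE 0.07, adjusted p = 0.0249) called in 2 of the 6 fits without 1 array. NFKBIZ, a nuclear member of the inhibitor of NF-kB family that acts as a coactivator, gave 560.3, 604 and 539 with DMSO and 425, 435 and 377 with MLN4924. Its treated arrays were all below the controls, and the change was -0.43 (SE 0.07, adjusted p = 0.00197). With the mean of all probe sets it was -0.34 and was not called. Of 31 NF-kB genes 2 rose, 1 fell (0.339% and 0.212% of all genes) and 28 were not called, with a median of -0.066. NFKBIA, the inhibitor gene that NF-kB itself induces, overlapped between groups (-0.17, adjusted p = 0.881).

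The immediate early genes, which growth factor signalling through MAP kinases switches on within minutes, were mainly lower where called. EGR1, a zinc finger factor and the classical member, gave 327, 317 and 297 with DMSO and 164, 166 and 153 with MLN4924. All treated arrays lay far below the controls (log2 change -0.84, SE 0.15, adjusted p = 0.0045), and the changes of 2 other probe sets were -0.51 and -0.41, neither called. With DMSO replicate 3 alone the change was -0.77 (adjusted p = 0.291). NR4A1, a nuclear receptor, gave 253, 279.8 and 211 with DMSO and 161, 129 and 127 with MLN4924, a change of -0.71 (SE 0.14, adjusted p = 0.0108), called in 2 of the 6 fits without 1 array. A dimmer probe set of the gene gave 0.11 (adjusted p = 0.961). IER3, a stress-inducible survival gene, gave 3028, 3158 and 3199.6 with DMSO and 2331, 2264 and 2567 with MLN4924, a change of -0.39 (SE 0.07, adjusted p = 0.00716). IER2, a further member, gave 1479, 1430.1 and 1382 with DMSO and 1135, 1105 and 1035 with MLN4924, a change of -0.38 (SE 0.09, adjusted p = 0.0353) called in 1 of the 6 fits without 1 array. The treated arrays of both IER genes lay below all controls. Against DMSO of 1, 2 and 4 h together IER3 had -0.18 (adjusted p = 0.223) and NR4A1 -0.41 (adjusted p = 0.11), neither called, and the DMSO mean of IER3 at 1 h was 2424 against 2387 with MLN4924 at 2 h.

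In all 4 of 29 immediate early and AP-1 genes fell, against 0.212% of all genes, and 1, ATF3, rose, with a median of -0.042. FOS, a subunit of the AP-1 dimer, overlapped between groups at 2 h (-0.14, adjusted p = 0.885), and its change of -2.14 was called at 4 h. The DMSO mean of FOS was 313 at 1 h, 151 at 2 h and 518 at 4 h. Its MLN4924 mean was 135 at 2 h and 92.8 at 4 h. JUN, its partner, lay higher on all 3 treated arrays (0.40) and missed the threshold (adjusted p = 0.179), and so did the shear-stress factor KLF2 (0.45, adjusted p = 0.0853). By 4 h the list held 13 called lower, against 1.57% of all genes, and 4 called higher, against 1.83%.

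Feedback genes of the MAP kinase pathway split, 2 higher and 2 lower of 27, against 0.339% and 0.212% of all genes, with a median of 0.050. DUSP10, a phosphatase that acts on p38 and JNK, gave 341, 356 and 396 with DMSO and 222, 234 and 255 with MLN4924. The treated arrays were all below the controls (log2 change -0.56, SE 0.09, adjusted p = 0.00108). SPRY2, an inhibitor of receptor tyrosine kinase signalling, gave 2318, 2279.5 and 2158 with DMSO and 1748, 1877 and 1496 with MLN4924, a change of -0.40 (SE 0.07, adjusted p = 0.00582). DUSP4, a nuclear phosphatase that acts on ERK, went the other way with 1361, 1270.5 and 1270.5 with DMSO and 1896, 1746 and 1706 with MLN4924, a change of 0.45 (SE 0.09, adjusted p = 0.0127), and 2 further probe sets at 0.47 and 0.31. The groups of both SPRY2 and DUSP4 did not overlap. Against DMSO of 1, 2 and 4 h together DUSP4 had 0.18 (adjusted p = 0.389) and lost its call, and its DMSO mean at 4 h, 1882, exceeded the 1782 with MLN4924 at 2 h. MYC is the second riser of the list. DUSP6, the cytosolic ERK phosphatase, overlapped (0.34, adjusted p = 0.322).

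The AP-1 site, searched as TGANTCA, was in 5 of 53 promoter windows of called risers (9.43%) and in 0 of 33 of the called falls, against 5.84% of tested genes' windows and 7.76% of all 27305. CXCL8 (chr4:73740412-73740458) and OSGIN1 (chr16:83953123-83953169) are shown as the 2 risers of this set that were called under every alternative that held them. EGR1 (chr5:138465376-138465425) is shown as the deepest fall, with a serum response element, the site of SRF, in capitals. All lie on the plus strand.
CXCL8: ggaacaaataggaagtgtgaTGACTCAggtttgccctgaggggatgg
OSGIN1: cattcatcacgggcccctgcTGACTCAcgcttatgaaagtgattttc
EGR1: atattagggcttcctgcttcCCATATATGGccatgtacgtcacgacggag
The matches began 137, 97 and 83 bases before the start, and EGR1 held a second such element at 105.

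Motif shares of the called genes are given here with no test, beside those of the 15384 windows of tested genes and those of all windows. The antioxidant core was in 15.1% of the risers' windows, 18.2% of the falls', 14.8% of tested genes' and 13.6% of all. For the ATF4 element the shares were 3.77%, 0%, 2.62% and 3.67%. The hypoxia core ACGTG, which lies inside the E-box CACGTG, was in 24.5%, 33.3%, 24.1% and 21.6%, and the E-box in 3.77%, 9.09%, 8.9% and 7.43%. The cyclic AMP response element TGACGTCA was in none of the called genes' windows, 2.67% of tested genes' and 1.98% of all, and the serum response element in 0%, 3.03%, 1.22% and 1.29%. Of the called genes 53 of 67 risers and 33 of 42 falls had a window, matches on both strands were counted, and the antioxidant core can overlap an AP-1 site.

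The called genes of the ubiquitin system were not counted as a set, and some of them are described here, besides TRIM16 above. FBXO30, which encodes an F-box protein, the substrate-binding part of a cullin 1 ligase, gave 441, 468 and 466 with DMSO and 821, 831 and 797 with MLN4924. The groups were narrow and far apart, with a change of 0.79 (SE 0.05, adjusted p = 2.34e-10), and 0.51, still called, with the mean of all probe sets. USP53, of the deubiquitinase family, rose by 0.61 (SE 0.13, adjusted p = 0.0216) and was called in 2 of the 6 fits without 1 array. UBB, one of the genes that encode ubiquitin as a polymer, gave 9342, 9109 and 9603 with DMSO and 8006, 7541 and 8313 with MLN4924, a small change of -0.23 (SE 0.05, adjusted p = 0.0264) called in 1 of those 6 fits. UBBP1, a pseudogene of UBB whose probes may share sequence with it, gave 906, 1118 and 1189.9 with DMSO and 625, 769 and 547 with MLN4924, a change of -0.71 (SE 0.12, adjusted p = 0.0028). Both were below all controls on all treated arrays.

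Of 57 measured genes of NEDD8 conjugation, cullins, their partners and substrate receptors none was called at 2 h, where 0.551% of all genes were, and the median was -0.009. FBXO30 was not on that list. The drug's target is the enzyme made of NAE1 and UBA3, and the log2 differences of their transcripts were 0.01 and 0.08 with overlapping groups. NEDD8 was at -0.04 and CUL3 at 0.06. CUL1 lay higher on all 3 treated arrays (0.24, adjusted p = 0.303) without passing. None of 27 proteasome subunit genes was called (median -0.006).

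Cell death and metabolic genes were called in ones and pairs. PMAIP1 (NOXA), a cell death gene of the BCL2 family, gave 936, 778 and 963 with DMSO and 1687, 1547 and 1723 with MLN4924. The groups were well apart (log2 change 0.87, SE 0.07, adjusted p = 2.38e-08). It was the only called gene of 16 in the BCL2 family, against 0.339% of all genes called higher. The only other called p53 target of 29 was the DNA damage sensor XPC, which fell (-0.38, adjusted p = 0.0148), as did 0.212% of all genes. CDKN1A, the p21 gene, was not called (-0.08, adjusted p = 0.916). MCL1, the survival partner that NOXA binds, lay higher on each treated array without passing (0.20, adjusted p = 0.377).

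PDK1, a kinase that inhibits pyruvate dehydrogenase, gave 301, 267 and 262 with DMSO and 581, 559.6 and 485 with MLN4924. Its change was 0.89 (SE 0.08, adjusted p = 2.93e-07), with 2 further probe sets at 0.48 and 0.62. ADM, the vasodilator peptide adrenomedullin, gave 544, 497 and 582 with DMSO and 721, 788 and 761 with MLN4924. Its groups did not overlap, with a change of 0.46 (SE 0.07, adjusted p = 0.000403). These were the 2 called of 29 hypoxia genes (median 0.089), against 0.339% of all genes called higher, and HIF1A was at -0.01. The sugar carrier gene SLC2A3 (0.30, adjusted p = 0.249) and the mitophagy receptor gene BNIP3 (0.22, adjusted p = 0.396) were higher on all treated arrays, were not called at 2 h and were called at 4 h. Of the 29 hypoxia genes 21 had a change above 0 at 2 h, and the lowest change, not called, was -0.59. SGK1, a kinase of the AKT family that regulates ion transport, gave 1488, 1388 and 1402 with DMSO and 1970.1, 2145 and 2227 with MLN4924, a change of 0.56 (SE 0.07, adjusted p = 2.89e-05). TXNIP, which restrains thioredoxin and glucose uptake, gave 159.9, 199.5 and 163 with DMSO and 98.1, 123 and 119.5 with MLN4924, a change of -0.50 (SE 0.10, adjusted p = 0.00914), and was lower on all treated arrays. With the mean of all probe sets it was -0.28 (adjusted p = 0.26). IRS1, the insulin receptor substrate, rose by 0.44 (SE 0.09, adjusted p = 0.0254), called in 2 of the 6 fits without 1 array.

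Few protein folding genes were called. DNAJB4, a cytosolic HSP40 co-chaperone, gave 185, 181 and 185 with DMSO and 342, 415 and 329 with MLN4924. The treated arrays were well above the controls (log2 change 0.86, SE 0.09, adjusted p = 1.08e-06). The other 19 of 20 heat shock genes were not called (median 0.033), where 0.339% of all genes were called higher. XBP1, a transcription factor of the unfolded protein response, gave 304, 293 and 315 with DMSO and 454, 524 and 393 with MLN4924, a change of 0.53 (SE 0.09, adjusted p = 0.00241). ERO1B, an oxidase that forms disulphide bonds in the endoplasmic reticulum, gave 383, 299 and 287 with DMSO and 191, 159 and 199 with MLN4924, a change of -0.72 (SE 0.13, adjusted p = 0.00393). Against DMSO of 1, 2 and 4 h together ERO1B had -0.45, still called, and with DMSO replicate 3 alone it had -0.58. With the mean of all probe sets XBP1 had 0.33 (adjusted p = 0.166). The groups of XBP1 and ERO1B were apart in opposite directions. The other 20 of 22 genes of the unfolded protein response were not called (median -0.082), where 0.339% of all genes rose and 0.212% fell. VMP1, a membrane protein needed for autophagosomes, rose by 0.71 (SE 0.13, adjusted p = 0.00655), was called in all 6 fits without 1 array and was not called at 4 h (0.35).

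2 genes that serve histone messages, on no list, rose by small amounts. NPAT, a coactivator of histone gene transcription in S phase, gave 283, 273 and 251 with DMSO and 376, 338 and 345 with MLN4924. Its change of 0.36 (SE 0.06, adjusted p = 0.00553) was called in all 6 fits without 1 array but lost its call with the mean of all probe sets, and was as low as 0.12 over the alternatives. LSM11, a part of the particle that processes histone messages, gave 295, 313 and 279 with DMSO and 383, 377 and 360.1 with MLN4924, a change of 0.31 (SE 0.07, adjusted p = 0.0273) called in 1 of those fits and not with the mean of all probe sets. None of 40 genes of the G1/S transition and replication was called (median 0.026), nor of 30 of G2/M (0.032), where 0.551% of all genes were. CCNE1, which encodes cyclin E1, was higher on all treated arrays without passing (0.31, adjusted p = 0.161). NEIL3, a glycosylase that repairs oxidised bases, gave 299, 257 and 234 with DMSO and 403, 350.6 and 399 with MLN4924, a change of 0.50 (SE 0.08, adjusted p = 0.00108).

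The following risers are on none of the gene lists. F2RL2, a protease-activated receptor, gave 121, 117 and 108 with DMSO and 196, 236 and 182 with MLN4924. Its groups did not overlap, with a change of 0.68 (SE 0.10, adjusted p = 0.000509), and 0.43 (adjusted p = 0.242) with the mean of all probe sets. SPP1, which encodes osteopontin, rose by 0.57 (SE 0.09, adjusted p = 0.0012). EID3, a subunit of the SMC5/6 complex, gave 34.0, 39.9 and 34.3 with DMSO and 123, 119.8 and 72.5 with MLN4924, a change of 0.99 (SE 0.13, adjusted p = 7.38e-05). Treated replicate 3 was lower than the other two but above all controls. STK17A, a kinase of the death-associated family, rose by 0.60 (SE 0.09, adjusted p = 0.000589). Each of these 4 was called in all 6 fits without 1 array. KCNE4, a potassium channel subunit, rose by 0.93 (SE 0.17, adjusted p = 0.0077) but held its call in 3 of the 6 fits. Another probe set of KCNE4 had a change of 0.375 (adjusted p = 0.467) in the fit over all probe sets. The run with log2(signal + 16) gave 0.46 (adjusted p = 0.48) for the gene. The signals of the called probe set do not give so small a change with that constant. That run may have used the other probe set, so it does not show an effect of the constant.

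XPC and SLC30A1 were called in 3 of the 6 fits without 1 array, INHBA in 2, TXNIP and DUSP4 in 4, and IER3 and SPRY2 in 5. Among the falls, 8 were called in each of the 6 fits without 1 array: EGR1, DUSP10, NFKBIZ, ERO1B, UBBP1, TIPARP, SERTAD4 and LOXL4. With the ACTB ratio as a covariate EGR1, NFKBIZ and ERO1B were not called. With DMSO replicate 3 alone NFKBIZ had -0.36 and SERTAD4 -0.40. TIPARP, an ADP-ribosyltransferase induced by the aryl hydrocarbon receptor, gave 994, 918 and 1078 with DMSO and 715, 674 and 710.5 with MLN4924. It was below the controls on every treated array (log2 change -0.49, SE 0.07, adjusted p = 0.000129) and its change was -0.60 (adjusted p = 0.0013) with DMSO replicate 3 alone and -0.25 (adjusted p = 0.0217) against DMSO of 1, 2 and 4 h together. LOXL4, an enzyme that crosslinks collagen, gave 1107, 1196 and 965 with DMSO and 719, 704 and 674 with MLN4924. The groups did not overlap and the change was -0.61 (SE 0.07, adjusted p = 7.57e-06). It was -0.29, still called, against DMSO of 1, 2 and 4 h and -0.26 (adjusted p = 0.334) with the mean of all probe sets. The DMSO mean of LOXL4 at 1 h, 656, lay below the 699 with MLN4924 at 2 h. SERTAD4 gave 869, 807 and 812 with DMSO and 616, 604 and 602 with MLN4924, close within each group, with a change of -0.43 (SE 0.07, adjusted p = 0.000732).

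2 developmental regulators were called in fewer of these fits. ID2, which blocks basic helix-loop-helix factors, gave 254, 228 and 313 with DMSO and 173, 147 and 165 with MLN4924, a change of -0.61 (SE 0.12, adjusted p = 0.0128) called in 4 of those fits. SOX2, a stem cell factor, gave 381, 443 and 500.3 with DMSO and 323, 298 and 244 with MLN4924, a change of -0.56 (SE 0.11, adjusted p = 0.0127) called in 3. With DMSO replicate 3 alone both were called, at -0.84 and -0.74, and with the mean of all probe sets neither, at -0.37 and -0.17. ID3 overlapped (-0.49, adjusted p = 0.175), and ID1 did too (-0.08). INHBA, which encodes a subunit of activin, fell by 0.46 on the log2 scale (SE 0.09, adjusted p = 0.0128). ID2 and INHBA were the 2 called of 32 ID, TGF-beta and BMP feedback genes (median -0.103), against 0.212% of all genes called lower. SOX2 was the only 1 called of 59 short-lived transcription factors of the KLF, SOX, FOX and circadian families (median 0.010), against the same share. SLC30A1, the zinc exporter, fell by 0.57 on the log2 scale (SE 0.12, adjusted p = 0.0273). It was the only 1 called among 16 genes of metallothioneins and zinc transport, against 0.212% of all genes called lower. SLC30A1 had -0.30 (adjusted p = 0.266) against DMSO of 1, 2 and 4 h.

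**Figure D3:**
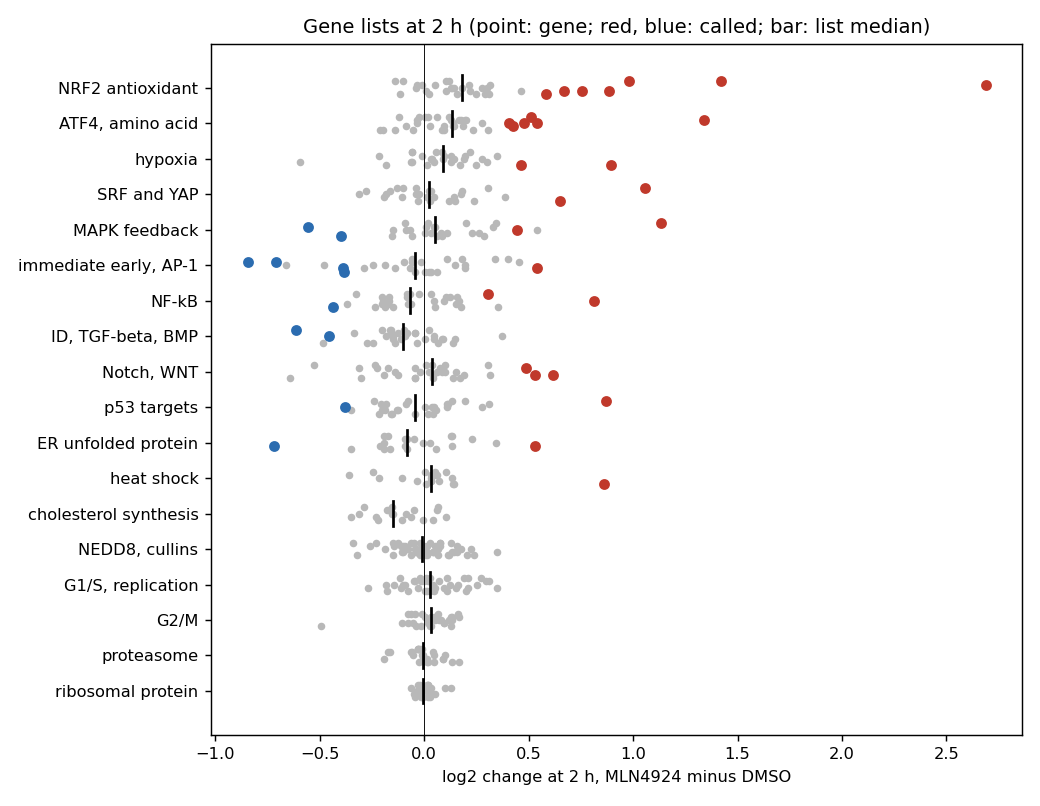
Log2 change at 2 h (horizontal axis) of the measured members of 18 gene lists (rows), with called members in red (higher) or blue (lower) and the list median as a bar. Most members cluster near 0, and the list median runs from -0.147 for cholesterol synthesis to 0.180 for NRF2 genes.

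With 0.551% of all genes called, 16 of the 32 lists examined had no called member. Besides those given above, they included ribosome biogenesis (24 genes, median 0.008), cholesterol synthesis (19 genes, median -0.147, 4 above 0), ribosomal proteins (26 genes, -0.007), receptor tyrosine kinase ligands and receptors (33 genes, -0.051), interferon response (21 genes, -0.027), melanocyte lineage (23 genes, -0.028), housekeeping (15 genes, 0.022) and the 4 lists of other cell types. The MYC, MAX and MXD network had MYC alone of 17, against 0.339% of all genes called higher. On the list of cholesterol synthesis and SREBP genes SREBF1 (-0.35, adjusted p = 0.292) and HMGCS1 (-0.29, adjusted p = 0.249), an early enzyme, were not called. Both lay below all controls on each treated array. Of the 109 called genes 69 were on no list.

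The 2 h and 1 h effects were compared directly. The test of that difference called 20 genes higher over all genes (0.101%) and 9 lower (0.0455%), and 19 and 7 of these were among the genes called at 2 h. The comparison shares the 2 h arrays with the choice of those genes. Risers had a median change of 0.09 at 1 h and falls of -0.01. HMOX1 went from 0.55 to 2.69, MYC from 0.21 to 1.14, and CHAC1 from 0.59 to 1.34. EGR1 went from 0.52 to -0.84, a called difference of -1.37, and its 1 h value was not called.

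At 4 h, on other arrays with other controls, 55 of the 67 risers (82.1%) were called higher, where 1.83% of all genes were, and 23 of the 42 falls (54.8%) were called lower, where 1.57% were. No gene was called the opposite way. At 8 h the same direction held for 49 risers (73.1%, 8.37% of all genes) and 18 falls (42.9%, 6.81%). At 24 h it held for 43 risers (64.2%, 15.9% of all genes) and 17 falls (40.5%, 18.1%). The median change of the risers was 0.81, 0.93 and 0.67 at the 3 later times and that of the falls -0.43, -0.15 and -0.09. All 3 later times called 36 risers and 13 falls in the 2 h direction.

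**Figure D4:**
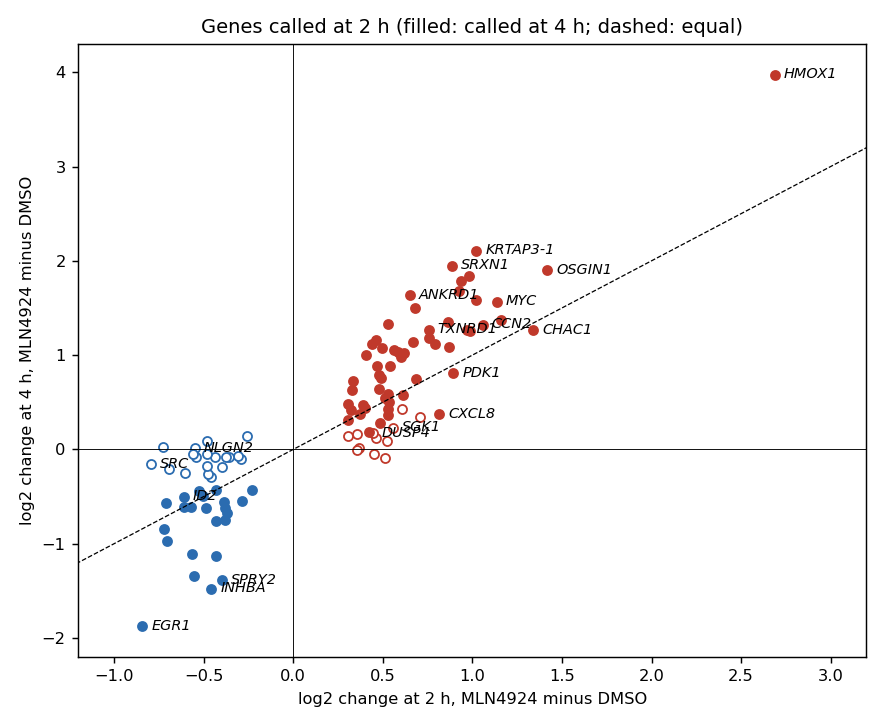
Log2 change at 4 h (vertical axis) against 2 h (horizontal axis) of the 109 genes called at 2 h, MLN4924 minus DMSO, with genes called at 4 h filled and a dashed line of equal change. Of 67 risers (red) 45 lie above the line, and 19 of 42 falls (blue) are open circles, not called at 4 h, whose changes there run from -0.30 to 0.14.

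From 2 h to 4 h the test of the difference called 38 genes over all with a higher effect (0.192%) and 59 with a lower one (0.298%). Among the risers 12 grew further, the most HMOX1 (by 1.29), SRXN1 (1.06), ANKRD1 (0.99) and SLC7A11 (0.86), and none fell by that test. F2RL2 (0.82), WNT5A (0.80), ADM (0.70), IRS1 (0.68), TRIB3 (0.59), NEIL3 (0.58), TXNRD1 (0.51) and FBXO30 (0.33) grew as well. Among the falls 5 deepened: EGR1 (-1.03), INHBA (-1.02), SPRY2 (-0.99), DUSP10 (-0.79) and NFKBIZ (-0.69). KLHDC4, the only fall with a called difference upwards (0.40), was the exception. CHAC1 and PDK1 had near equal changes at 2 h and 4 h (1.27 and 0.81 at 4 h).

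Of the 109 genes 26 were called the opposite way at 4, 8 or 24 h, 14 risers and 12 falls. TRIB2, a pseudokinase, had 0.49 at 2 h, -0.34 at 8 h and -2.91 at 24 h. SGK1 went from 0.56 to -0.36 and -0.74. TLR4, the receptor of bacterial lipopolysaccharide, went from 0.53 at 2 h to -1.26 at 24 h, USP53 to -0.83 and DUSP4 to -0.60. Of the falls, EGR1 was called higher at 8 h (1.32) and 24 h (1.03), and SLC30A1 (2.10), TXNIP (1.37), XPC (1.27) and NR4A1 (0.79) at 24 h. Called at 2 h and at no other time were 4 risers (MEP1A, GLRA1, TAF8, NBPF8) and 8 falls (CELSR3, SRRM2, CC2D1B, ZNF613, NLGN2, WBP2, MAP7D1, DNAH7), all named for completeness after their values were seen.

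The DMSO levels behind the falls are given as a description only, since a DMSO mean above MLN4924 at 2 h chose these genes and a high DMSO level at 2 h is in part built into that choice. In the 19 falls not called at 4 h the DMSO level at 2 h exceeded the mean of DMSO at 1 and 4 h by a median of 0.26 on the log2 scale, and the treated level stood at -0.20 against the same mean. In the 23 falls called at 4 h these values were 0.11 and -0.32. DMSO replicate 3, the array with the low ACTB ratio, was the lowest of its group in 13 of 19 and 12 of 23. With it as the only control the median change went from -0.48 to -0.31 for the 19 genes and from -0.49 to -0.43 for the 23.

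MAP7D1, a microtubule-binding protein gene among the 19, gave 707, 699 and 498 with DMSO and 429, 410.2 and 369 with MLN4924. DMSO replicate 3 lay between the other 2 controls and the treated arrays, and the change of -0.60 (SE 0.12, adjusted p = 0.0127) was -0.29 (adjusted p = 0.874) with that control alone. SRC, the tyrosine kinase gene and the only called fall whose groups overlapped, gave 245, 233 and 153.5 with DMSO and 154.1, 98.3 and 75.8 with MLN4924 (log2 change -0.79, SE 0.19, adjusted p = 0.0499). TRIM28, a corepressor of retroelements, went from -0.48 to -0.26 (adjusted p = 0.941). The part of RNA quality in these changes was not tested. A fit with the ACTB ratio as a covariate called 48 higher and 11 lower. With replicate 3 alone the median change of the 55 risers called at 4 h went from 0.60 to 0.57, and that of the 12 others from 0.46 to 0.44. In these 12 the median DMSO level at 2 h was -0.22 against the mean of DMSO at 1 and 4 h, and the treated level 0.23. In the 55 these values were -0.04 and 0.57. A low DMSO level is in part built into the choice of risers.

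**Figure D5:**
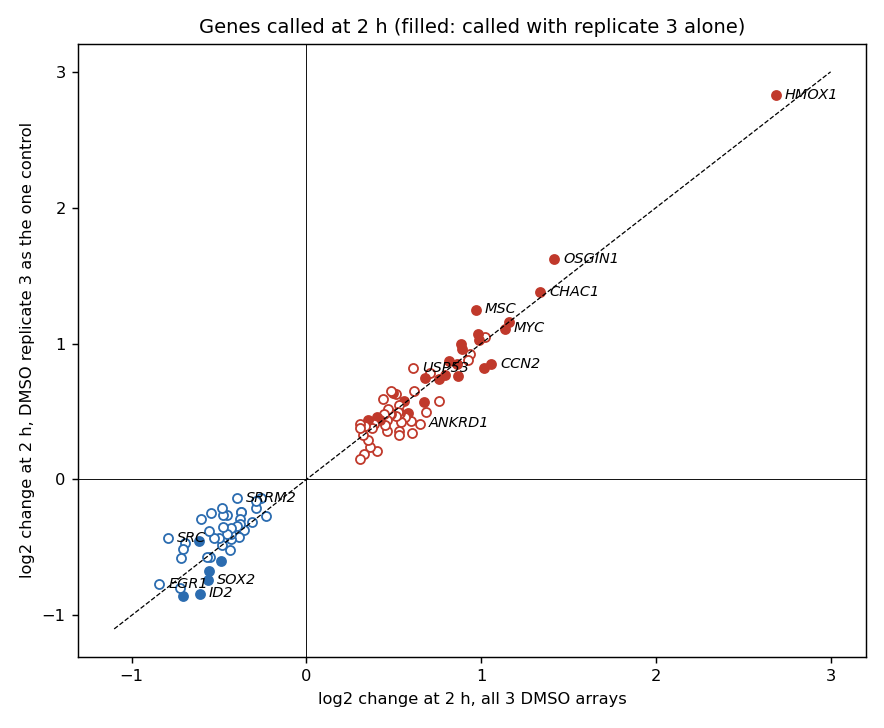
Log2 change at 2 h of the 109 called genes with all 3 DMSO arrays (horizontal axis) and with DMSO replicate 3 as the only control (vertical axis), risers in red, falls in blue, filled where still called, with a dashed line of equal change. HMOX1 and MYC lie close to the line, at 2.83 and 1.11 with replicate 3 alone, and 29 of 42 falls are smaller in size than with all 3 arrays.

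Probe sets of 1 gene did not always move together. Of the 50 called genes with another probe set of mean signal 50 or more, 41 had the same sign in each, and those with a probe set of the other sign were CAVIN1, CHST1, CTDSPL2, DDX11, KLHDC4, NLGN2, RSRP1, SPCS3 and ZNF551. At the edge of the threshold, ZNF551 (0.61, adjusted p = 0.0481), GLRA1 (0.51, 0.0481) and SRC (-0.79, 0.0499) lay just inside, and PLA2G2A (-0.56, 0.0513), BICD1 (0.32, 0.052) and MALT1 (0.39, 0.0522) just outside, by limma.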

How the data were processed

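The deposited table holds an intensity for each of 54675 probe sets on each array. Per the submitters' processing notes the authors made these intensities with Affymetrix Expression Console, whose version and summary method the sources used here do not give. Each of the 30 arrays had a mean of 150.02 once 2% of values were trimmed from either end, values ran from 0 to 18206.6, and 55 were 0. Of the probe sets 41097 had 1 gene symbol, 1801 several and 11777 none.

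From these values signals were quantile-normalized and transformed as log2(signal + 32), and the brightest probe set with 1 symbol was kept for each of 19775 genes. limma 3.58.1 in R 4.3.3 was fitted with 10 group means over 30 arrays (20 residual degrees of freedom), with eBayes, two-sided tests and Benjamini-Hochberg adjustment per contrast. Samples were grouped by title. Deviations of same-numbered DMSO and MLN4924 arrays from their group means correlated at 0.018, 0.008 and 0.025, so replicate numbers were not used as pairs. The fit was tested on simulated data, and figures were drawn with matplotlib 3.10.9. Promoters are RefSeq windows of GRCh38.p14.

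The comparison, the gene lists and the tests were chosen with earlier results of these data known. Named genes were the 25 largest called changes in each direction with arrays that do not overlap and a group mean above the median, up to 6 called members of each list, preset genes, up to 10 genes called oppositely later, the 10 largest called changes from 2 h to 4 h each way, and 3 genes on each side of the threshold. UBB, NPAT, LSM11, SPP1, STK17A, genes called at 2 h only, genes with disagreeing probe sets, genes called oppositely beyond the first 10 and uncalled list members were chosen after their values were seen. Alternatives changed the added constant, scaling, filter, probe set choice, arrays used, controls and variance model. Leaving out DMSO replicates 1 and 2 together was added for the comparisons between times after seeing the data. The values of 1 gene list are not reported here.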

Additional observations from a re-analysis of the deposited data

Results flagged for a closer look

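The drug effect differed between 1 h and 2 h in 26 of the genes called at 2 h, by limma's test of the difference (adjusted p under 0.05). The effect at 2 h exceeded that at 1 h, on the log2 scale, by 2.14 in HMOX1, 1.25 in OSGIN1, 1.06 in NMRAL2P, 0.96 in TRIM16, 0.95 in SLC7A11, 0.92 in MYC, 0.90 in CCN2 and 0.87 in SRXN1. It exceeded it by 0.84 in HHEX, 0.82 in ZNF257, 0.75 in CHAC1, 0.72 in TXNRD1, 0.71 in DNAJB4, 0.66 in CXCL8, 0.65 in PDK1, 0.62 in ABCC2 and FBXO30, 0.57 in PMAIP1 and 0.42 in TRIB3. The difference was -0.42 in SLC20A1, -0.47 in SERTAD4, -0.56 in RSRP1, -0.72 in LOXL4, -0.77 in DPY19L2P2, -1.15 in RASL12 and -1.37 in EGR1.

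Between 2 h and 4 h the effect differed by the same test in 18 of these genes. It was higher at 4 h by 1.29 in HMOX1, 1.06 in SRXN1, 0.99 in ANKRD1, 0.86 in SLC7A11, 0.82 in F2RL2, 0.80 in WNT5A, 0.70 in ADM, 0.68 in IRS1, 0.59 in TRIB3, 0.58 in NEIL3, 0.51 in TXNRD1, 0.40 in KLHDC4 and 0.33 in FBXO30. The difference was -0.69 in NFKBIZ, -0.79 in DUSP10, -0.99 in SPRY2, -1.02 in INHBA and -1.03 in EGR1. Both comparisons share the 2 h arrays with the choice of these genes.

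Among the 13578 probe sets without a single gene symbol, which no comparison of genes used, 28 were called at 2 h in the fit over all probe sets, 20 higher and 8 lower.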

How the results depend on the processing

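Of the 109 genes called at 2 h (67 higher, 42 lower), single arrays moved the count from 68 to 244, the higher calls from 49 to 106 and the lower calls from 17 to 138. The highest came without DMSO replicate 3, and the counts were 69 without DMSO replicate 1 and 68 without DMSO replicate 2. Genes called at 2 h and at 4 h ranged from 52 to 82, higher from 39 to 55 and lower from 11 to 29. The change from 1 h to 2 h ranged from 21 to 45 genes, higher from 17 to 26 and lower from 3 to 19, and that from 2 h to 4 h from 61 to 111, higher from 23 to 55 and lower from 38 to 58. Without DMSO replicates 1 and 2 together 41 genes were called at 2 h (27 higher, 14 lower), 29 at both 2 h and 4 h (23 and 6), 18 for the change from 1 h (11 higher) and 39 for that to 4 h (16 and 23). With only the arrays compared these were 10 (8 and 2), 34 (27 and 7), 1 (1 and 0) and 23 (7 and 16). With median centring of the arrays the lower calls were 26 at 2 h, 15 at both times and 33 from 2 h to 4 h. Against DMSO of 1, 2 and 4 h 102 were higher at 2 h, but 79 of the 109 (56 of 67 higher, 23 of 42 lower) were among the calls, and with the ACTB ratio as a covariate 59 were called, 11 lower. log2(signal + 1) left 5 lower changes from 1 h, and leaving out signals under 50 gave 60 higher changes to 4 h. Without probe sets that may cross-hybridise NR4A1 had 0.11 and ZNF551 -0.15. The causes were not tested. With the replicate block 102 genes were called at 2 h (61 and 41) and 75 at both times. Dim genes have compressed changes, and 11 called genes had both means at or below the median signal.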
